A study of Arabidopsis thaliana with 8 samples.

Results

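The genes described here belong to families that build and remodel the polysaccharides of the plant cell wall, measured in developing leaves of Arabidopsis thaliana. A gene was taken when a probe set of the array named it alone and its symbol began with TBL, CSL, CESA, GAUT, XTH, FLA, PME, IRX or GH9 followed by a letter or digit, and CSLA01 was left out. The rule found 58 genes, each with 1 probe set, among 13350 genes named by 13513 such probe sets. They comprised 22 TBL, 15 GH9, 9 XTH, 6 CSL, 3 PME, 2 IRX and 1 GAUT gene. No CESA or FLA gene was among them, so the cellulose synthases themselves and the fasciclin-like arabinogalactan proteins were not analysed here. The gene table of the reference lists 41 TBL, 21 GH9, 30 XTH and 25 CSL symbols under the same rule. It also lists 16 PME, 13 GAUT, 10 IRX, 7 CESA and 19 FLA symbols. The values below cover only the genes found, which are few for PME, GAUT and IRX.

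All 8 samples were total RNA from leaf insertions 19 to 21 of accession Col-0, the standard laboratory wild type, taken at 0 h. Biotin-labelled material was read on ATH1 arrays, on which a probe set is a group of short probes that together read a transcript. Plants were raised on compost in a growth room at 20 °C and 50% humidity with 10 h of light. In the elevated group (4 arrays) plants came from an atmosphere of elevated CO2, which only the label of elevated replicate 1 quantifies, as 750 ppm. That label alone also gives a time of adjustment in a cuvette, 24 h. The label of elevated replicate 4 says elevated without naming the gas. The not-elevated group (4 arrays) has no mention of elevated CO2, and its replicate 1 has a title code unlike the rest and is marked by a letter where they say control. The growth description shared by all arrays calls the atmosphere normal, so the grouping rests on the treatment text. The labels give neither the number of plants in a sample nor whether replicates were separate plants, so p-values reflect only how these arrays vary, and that variation may be technical.

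Plant cells lay cellulose fibres into a matrix of hemicelluloses (xyloglucan, xylan and mannan) and pectin. Cellulose-synthase-like (CSL) enzymes make hemicellulose backbones in the Golgi, galacturonosyltransferases (GAUT) make pectin, and trichome birefringence-like (TBL) proteins add acetyl groups to wall polymers. After secretion, xyloglucan endotransglucosylase/hydrolases (XTH) cut and rejoin xyloglucan, pectin methylesterases (PME) remove methyl groups from pectin, and family 9 glycosyl hydrolases (GH9) are endoglucanases. In a growing leaf these steps let walls extend and then stiffen.

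The arrays were scaled alike, with 66.1% to 69.7% of probe sets per array at a signal of at least 20 array units. Across probe sets, the mean r with the other arrays of the elevated group was 0.973 for elevated replicate 1, the least of any array with its group. For elevated replicate 3 it was 0.977, below its mean r of 0.981 with the not-elevated arrays. Of 34 fixed marker genes of leaf and other cell types, the gene tables named 5. The mesophyll gene RCA, Rubisco activase, read 3156.8 to 3699.6 units in the elevated group and 2333.4 to 3433.5 units in the not-elevated group. The stem cell gene CLV3 did not exceed 3.8 units on any array. The guard cell factor FMA read 56.5 to 73.7 units in the elevated group and 49.2 to 75.3 units in the not-elevated group, and the root hair expansin EXPA7 13.4 to 35.9 units and 24.7 to 28.8 units in the same order. A second root hair expansin, EXPA18, read 25.1 to 30.4 units in the elevated group and 24.8 to 29.8 units in the not-elevated group. The part of these cell types in the differences below was not tested. No xylem, phloem, epidermis, trichome or pollen marker was named, so the share of vascular tissue was not checked. Fewer cells of a type and less RNA per cell cannot be told apart in such bulk samples.

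The comparison asks which of these wall genes differed between leaves of plants labelled as elevated and leaves of plants not so labelled. Most members were slightly higher in the elevated group, by amounts that did not pass the test. Of the 58 genes, 35 (60.3%) averaged 20 units or more across the arrays and were tested, against 67.2% of all probe sets. Differences are on the log2(signal + 10) scale, elevated minus not elevated, from limma fitted to all 15296 tested probe sets, with p-values adjusted by the Benjamini-Hochberg method. At an adjusted p of 0.05, 0 of the 35 members were called, against 48 of all tested probe sets (0.314%). An unadjusted p under 0.05 was reached by 8 members (22.9%), 6 higher and 2 lower, against 11.1% of all tested probe sets, 5.09% higher and 6.05% lower. These were PMEAMT, TBL26, CSLA03, TBL19, XTH16 and TBL36, which were higher, and GH9C2 and TBL37, which were lower. PMEAMT is not a wall enzyme, as described below, and without it the count was 7 of 34. The 2 groups were fully separated in signal in 5 members (14.3%), 4 higher and 1 lower, against 6.11% of all, 2.9% higher and 3.22% lower.

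The direction was up in 25 of the 35 tested members (71.4%), against 50.4% of all tested probe sets. With both replicate 1 arrays left out it was up in 21 of 36. The median difference was 0.062, against 0.0013 over all tested probe sets. The 95% interval of the difference lay within 1.5-fold either way in 32 of the 35 members, against 89.4% of all tested probe sets. The exceptions were TBL26, CSLA03 and PMEAMT, whose intervals reached 0.66, 0.62 and 0.73. By family the median difference was 0.13 for 6 CSL genes, 0.12 for 2 XTH genes, 0.047 for 8 GH9 genes, 0.044 for 14 TBL genes and 0.22 for 3 PME genes, among them PMEAMT, without which it was 0.058. These medians are descriptions only, and several moved by over 1.5 times with 1 array left out. The CSL median was 0.082 without not-elevated replicate 1, the XTH median 0.067 without not-elevated replicate 4, and the TBL median 0.068 without elevated replicate 3 and 0.073 without elevated replicate 4. The GH9 median was 0.075, 0.014 and 0.11 without elevated replicates 1, 2 and 3, and 0.021 without not-elevated replicate 1. The median of all members was 0.11 without elevated replicate 3. The plot of differences by family shows each member with its interval.

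**Figure D1:**
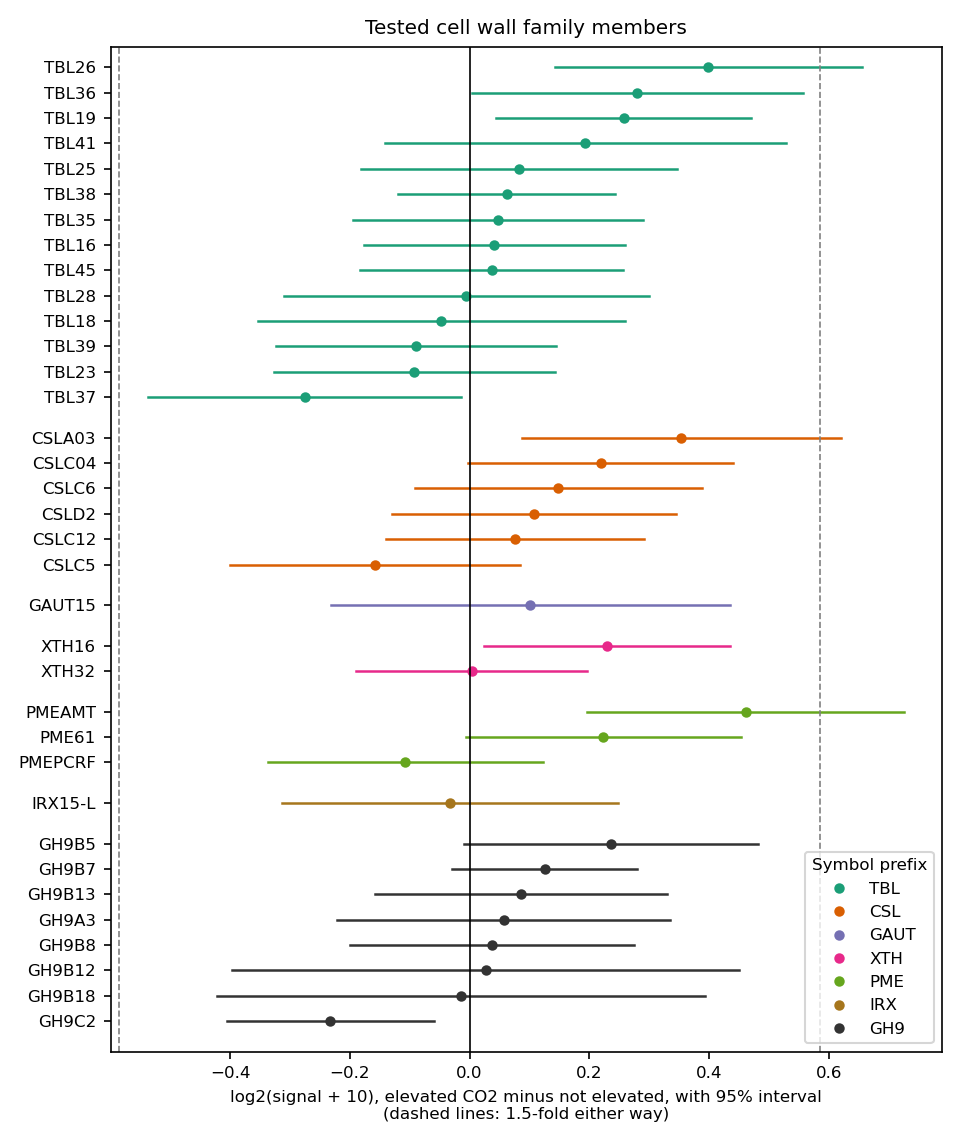
Difference of each tested member on the log2(signal + 10) scale, elevated CO2 minus not elevated, with its 95% interval from limma, grouped and coloured by symbol prefix. Dashed lines mark 1.5-fold of signal + 10 either way, which is a wider bound on the signal of dim members. Of the 35 members 25 lie above 0, and only the intervals of TBL26, CSLA03 and PMEAMT pass a dashed line.

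The TBL family held the member of the wall polymer families with the smallest p, TBL26, one of the enzymes that acetylate mannan. TBL26 (AT4G01080) read 204.0, 264.9, 286.0 and 247.9 units in elevated replicates 1 to 4, against 214.9, 197.9, 152.0 and 186.3 units in not-elevated replicates 1 to 4. Elevated replicate 1 lay below not-elevated replicate 1, and the other 3 elevated arrays lay above every not-elevated array. The means were 251 ± 34.8 units in the elevated group and 188 ± 26.6 units in the not-elevated group (SD, n = 4 each), a log2 difference of 0.40 ± 0.12 (SE, limma adjusted p = 0.207). It was past the threshold only with both replicate 1 arrays left out (log2 difference 0.56, limma adjusted p = 0.0392), when 0.947% of all tested probe sets were.

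The related mannan acetyltransferases had smaller differences. TBL25 (AT1G01430) averaged 187 ± 16.5 units in the elevated group and 177 ± 34.9 units in the not-elevated group (SD, n = 4 each), a log2 difference of 0.083 with a 95% interval of -0.18 to 0.35. TBL23 (AT4G11090) averaged 72.2 ± 10.3 units in the elevated group and 77.3 ± 6.16 units in the not-elevated group (SD, n = 4 each), a difference of -0.092 with an interval of -0.33 to 0.14. Whether TBL26 differs from these genes in its response was not tested.

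Among the other TBL genes, 2 had groups that did not overlap, both higher in the elevated group. Over all tested probe sets, 2.9% were higher without overlap. TBL19 (AT5G15900) read 74.0, 62.9, 78.4 and 71.6 units in the elevated replicates, against 56.2, 60.7, 60.8 and 55.3 units in the not-elevated replicates. Its lowest elevated array, replicate 2, stood just above the highest not-elevated array, for a log2 difference of 0.26 ± 0.099 (SE, limma adjusted p = 0.340). TBL36 (AT3G54260) read 29.3, 31.1, 40.6 and 38.1 units in the elevated replicates, against 28.1, 26.5, 26.3 and 25.7 units in the not-elevated replicates. Here elevated replicates 3 and 4 were high and the other 2 close to the not-elevated arrays, for a log2 difference of 0.28 ± 0.13 (SE, limma adjusted p = 0.442).

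TBL37 (AT2G34070) had the lowest difference of the family. It read 70.2, 64.3, 65.3 and 60.0 units in the elevated replicates, against 61.9, 98.3, 80.5 and 85.5 units in the not-elevated replicates. Not-elevated replicate 1 lay within the elevated range and the other 3 not-elevated arrays lay above it, for a log2 difference of -0.28 ± 0.12 (SE, limma adjusted p = 0.418). TBL37 was chosen for mention after its values were seen.

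The 2 tested xylan acetyltransferases of the family had differences near 0. TBL28 (AT2G40150) averaged 86.2 ± 18.0 units in the elevated group and 86.1 ± 14.8 units in the not-elevated group (SD, n = 4 each), with a 95% interval of -0.31 to 0.30 on the log2 scale. TBL35 (AT5G01620) averaged 51.0 ± 6.50 units in the elevated group and 48.9 ± 3.96 units in the not-elevated group, with an interval of -0.20 to 0.29. TBL30, TBL32 and TBL34, which act on the same polymer, were below a mean of 20 units and not tested. The remaining TBL genes tested, TBL16, TBL18, TBL38, TBL39, TBL41 and TBL45, had differences of -0.089 to 0.19. TBL41 had the widest spread of the family, with 64.5, 43.0, 68.1 and 54.5 units in the elevated replicates and 45.3, 64.2, 36.4 and 51.1 units in the not-elevated replicates, so its groups overlapped over most of their range.

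**Figure D2:**
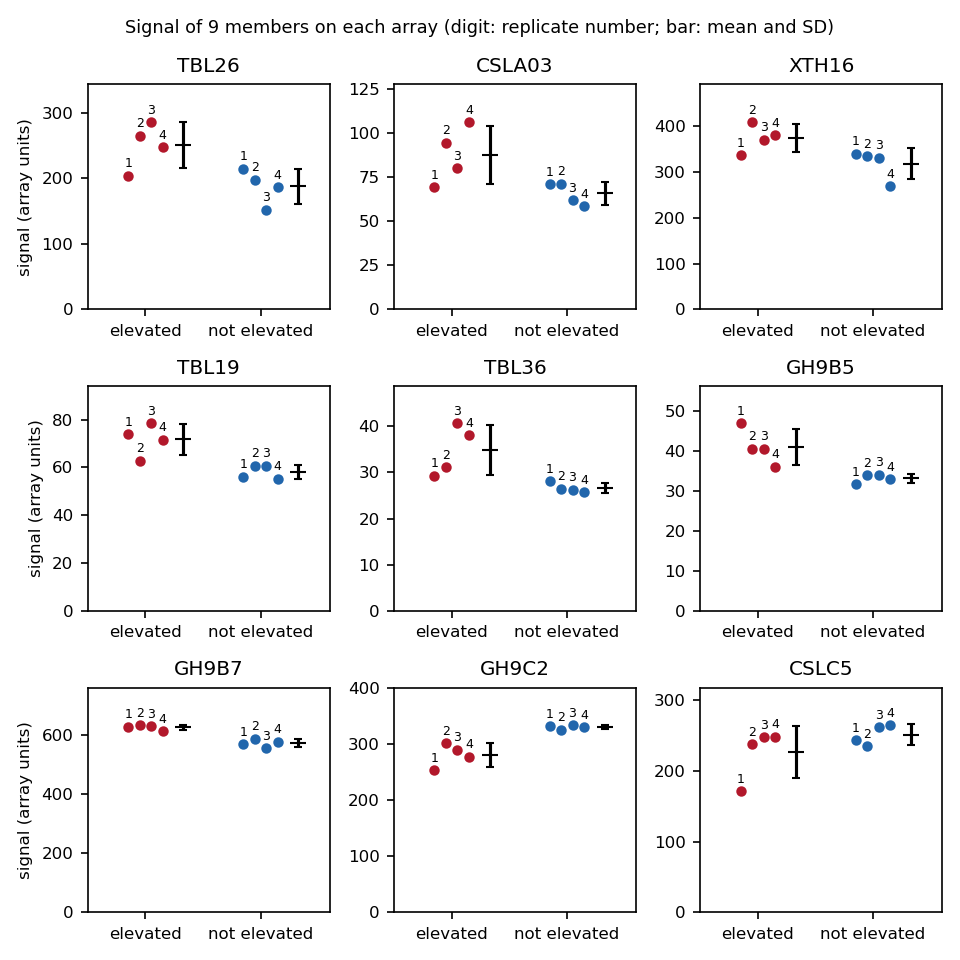
Signal in array units of 9 members on each array, elevated group at left in red and not-elevated group at right in blue, with the replicate number at each point and the mean ± SD (n = 4) as a bar; each panel starts at 0 and has its own scale. In TBL19, TBL36, GH9B5 and GH9B7 every elevated array lies above every not-elevated array, in GH9C2 every one lies below, and in CSLC5 elevated replicate 1 stands apart.

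Of the 6 CSL genes, 5 were higher in the elevated group and 1 lower. CSLA03 (AT1G23480), which belongs to the clade of mannan synthases, read 69.3, 94.4, 80.0 and 106.2 units in the elevated replicates, against 71.1, 71.3, 61.9 and 58.5 units in the not-elevated replicates. Elevated replicate 1 lay within the not-elevated range, and the other 3 elevated arrays lay above it. The means were 87.5 ± 16.2 units in the elevated group and 65.7 ± 6.51 units in the not-elevated group (SD, n = 4 each), a log2 difference of 0.35 ± 0.12 (SE, limma adjusted p = 0.287). CSLD2 (AT5G16910), known for its part in root hair growth, averaged 111 ± 13.5 units in the elevated group and 103 ± 12.0 units in the not-elevated group.

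The CSLC genes encode the synthases of the xyloglucan backbone. CSLC04 (AT3G28180) read 198.0, 226.8, 211.8 and 237.1 units in the elevated replicates, against 204.1, 213.4, 164.5 and 166.3 units in the not-elevated replicates. Not-elevated replicates 3 and 4 were low and the other 2 lay within the elevated range, for a log2 difference of 0.22 ± 0.10 (SE, limma adjusted p = 0.457). CSLC6 (AT3G07330) averaged 96.5 ± 15.4 units in the elevated group and 85.5 ± 6.06 units in the not-elevated group, and CSLC12 (AT4G07960) 53.3 ± 1.59 units and 50.2 ± 4.01 units in the same order (SD, n = 4 each). The intervals of CSLC04, CSLC6 and CSLC12 all held 0. ATCSLC08 (AT2G24630), a further gene of the clade that the symbol rule does not catch, had a difference of 0.032 ± 0.12 (SE, limma adjusted p = 0.955).

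CSLC5 (AT4G31590) was the CSL gene that was lower. It read 171.3, 237.8, 247.4 and 248.2 units in the elevated replicates, against 243.3, 234.9, 261.6 and 264.7 units in the not-elevated replicates. The low value of elevated replicate 1 carried most of the difference of -0.16 ± 0.11 (SE, limma adjusted p = 0.653). Without that array the difference was -0.036, the smallest in size with any 1 array left out.

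Of the 8 tested GH9 endoglucanases, 6 were higher and 2 lower, and 3 had groups that did not overlap. GH9C2 (AT1G64390), of the class that carries a carbohydrate-binding module, read 252.9, 301.0, 290.2 and 277.5 units in the elevated replicates, against 332.0, 325.8, 333.9 and 330.6 units in the not-elevated replicates. The not-elevated arrays lay close together and every elevated array lay below them, for means of 280 ± 20.7 units in the elevated group and 331 ± 3.46 units in the not-elevated group (SD, n = 4 each). The log2 difference was -0.23 ± 0.081 (SE, limma adjusted p = 0.281).

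GH9B7 (AT1G75680), of the secreted class B, had the least spread within groups of all tested members. It read 628.0, 634.2, 629.1 and 612.2 units in the elevated replicates, against 569.4, 588.0, 556.7 and 578.1 units in the not-elevated replicates. Every elevated array was above every not-elevated array, by a difference of 0.13 ± 0.072 on the log2 scale (SE, limma adjusted p = 0.562). GH9B5 (AT1G19940), also of class B, read 46.9, 40.6, 40.6 and 36.1 units in the elevated replicates, against 31.7, 34.0, 34.1 and 33.0 units in the not-elevated replicates, without overlap. Its log2 difference was 0.24 ± 0.11 (SE, limma adjusted p = 0.480).

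The other 5 tested GH9 genes differed by -0.015 to 0.086. GH9A3 (AT4G24260), known as KORRIGAN 3 and anchored in the membrane, averaged 51.7 ± 9.18 units in the elevated group and 49.0 ± 5.79 units in the not-elevated group (SD, n = 4 each), with a 95% interval of -0.22 to 0.34. GH9B18 (AT4G39010) varied most among replicates of all tested members, with a residual SD of 0.35 on the log2 scale. It read 62.2, 53.7, 27.7 and 52.4 units in the elevated replicates and 51.7, 59.5, 34.6 and 49.0 units in the not-elevated replicates, so replicate 3 was the lowest array of both groups. The median residual SD of the 35 members was 0.162, as it was over all tested probe sets.

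Of the 9 XTH genes, 2 reached the signal needed for the test. XTH16 (AT3G23730) read 336.8, 409.1, 370.7 and 380.4 units in the elevated replicates, against 339.6, 333.8, 331.4 and 269.1 units in the not-elevated replicates. Elevated replicate 1 lay among the not-elevated arrays and the other 3 elevated arrays lay above them all, while not-elevated replicate 4 lay far below its group. The means were 374 ± 29.8 units in the elevated group and 318 ± 33.1 units in the not-elevated group (SD, n = 4 each), a log2 difference of 0.23 ± 0.096 (SE, limma adjusted p = 0.389). XTH32 (AT2G36870) averaged 600 ± 54.1 units in the elevated group and 598 ± 45.7 units in the not-elevated group, with a 95% interval of -0.19 to 0.20 on the log2 scale. The other 7 XTH genes had mean signals of 0.894 to 15.7 units. They include XTH18, XTH19, XTH20, XTH21 and XTH26, members known mostly from roots.

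Of the PME prefix, 2 genes are pectin methylesterases. PME61 (AT3G59010) read 302.3, 382.0, 380.3 and 424.8 units in the elevated replicates, against 346.5, 332.1, 281.4 and 304.6 units in the not-elevated replicates. Elevated replicate 1 lay within the not-elevated range and the other 3 above it, for a log2 difference of 0.22 ± 0.11 (SE, limma adjusted p = 0.470). PMEPCRF (AT5G53370) averaged 262 ± 34.8 units in the elevated group and 283 ± 28.1 units in the not-elevated group, a difference of -0.11 with a 95% interval of -0.34 to 0.12.

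The third, PMEAMT (AT1G48600), is caught by its letters only: it encodes a methyltransferase of phosphocholine synthesis, not a wall enzyme. It read 246.9, 213.1, 252.5 and 252.2 units in the elevated replicates, against 224.2, 155.3, 140.8 and 178.2 units in the not-elevated replicates. Not-elevated replicate 1 was above elevated replicate 2, and otherwise the groups were apart, for the largest difference of the 35, 0.46 ± 0.12 (SE, limma adjusted p = 0.160). Without not-elevated replicate 1 it passed the threshold (log2 difference 0.58, limma adjusted p = 0.0187), when 0.862% of all tested probe sets did. It also passed with both replicate 1 arrays left out (0.57, limma adjusted p = 0.0335). With PMEAMT left out, 24 of 34 members were higher and the median difference was 0.059.

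The GAUT and IRX prefixes were each represented by 1 tested member. GAUT15 (AT3G58790), of the galacturonosyltransferase family, read 36.8, 48.0, 28.1 and 39.4 units in the elevated replicates and 43.9, 37.0, 27.8 and 30.3 units in the not-elevated replicates, with replicate 3 lowest in both groups. Its difference was 0.10 with a 95% interval of -0.23 to 0.44, and with 1 array left out it was least without elevated replicate 2 (0.0057) and greatest without elevated replicate 3 (0.21). IRX15-L (AT5G67210), which acts in xylan deposition in secondary walls, averaged 36.0 ± 3.77 units in the elevated group and 37.3 ± 6.24 units in the not-elevated group (SD, n = 4 each), with an interval of -0.31 to 0.25. Its close relative IRX15 had a mean of 4.06 units and was not tested. GUT2 (AT1G27440), a xylan synthase gene also known as IRX10 that the rule does not catch by symbol, read 121.7, 80.9, 80.4 and 67.6 units in the elevated replicates and 64.6, 72.8, 74.2 and 78.8 units in the not-elevated replicates (log2 difference 0.22, limma adjusted p = 0.616).

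Taking each tested member's deviation from its own mean over the 8 arrays, the median over the 35 members was 0.028, 0.081, 0.021 and 0.078 in elevated replicates 1 to 4, against -0.073, -0.012, -0.078 and -0.030 in not-elevated replicates 1 to 4. Every elevated array thus stood above every not-elevated array, by small amounts. Over all tested probe sets the same median ran from -0.011 to 0.024 in the elevated group and from -0.0083 to 0.015 in the not-elevated group. The common scaling of the arrays keeps that median near 0, so it is a weak comparison for 35 genes. The families did not follow one order of arrays. Among TBL genes elevated replicate 1 was highest (0.0998) and not-elevated replicates 1 and 3 lowest, and the other 5 arrays lay between 0.011 and 0.019. Among GH9 genes elevated replicate 2 was highest (0.13). The 6 CSL genes had medians of 0.030 to 0.15 in the elevated arrays and -0.098 to 0.019 in the not-elevated arrays.

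**Figure D3:**
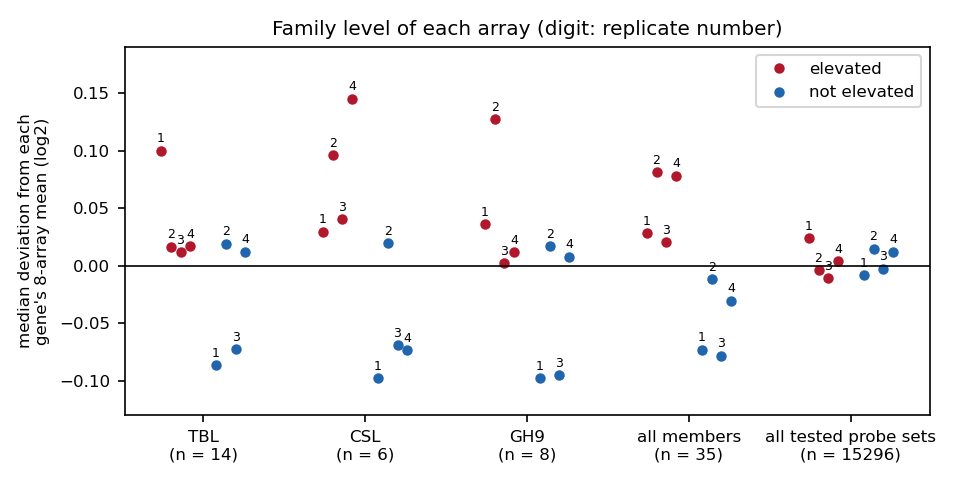
Median over the tested genes of each family of the deviation from the gene's own mean over the 8 arrays (log2 scale), for each array, elevated in red at left of each pair and not elevated in blue, with the replicate number at each point. Over all 35 members the elevated arrays lie at 0.021 to 0.081 and the not-elevated arrays at -0.078 to -0.012. The groups are mixed among TBL genes and among GH9 genes, and apart among CSL genes. They are mixed over all tested probe sets too, where the common scaling of the arrays keeps the median near 0.

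No member passed the threshold with all 8 arrays, and the differences of single members moved with the arrays used. With 1 array left out in turn, the difference of TBL26 was least without not-elevated replicate 3 (0.31) and greatest without elevated replicate 1 (0.49), with limma adjusted p from 0.114 to 0.456. That of CSLA03 was least without elevated replicate 4 (0.26) and greatest without elevated replicate 1 (0.45), with limma adjusted p from 0.166 to 0.582. GH9C2 stayed lower in each of these fits, between -0.27 and -0.19. Over up to 18 alternative fits per member, 23 of the 35 members kept their direction, among them TBL26, CSLA03, TBL19, TBL36, XTH16, GH9B5, GH9B7 and GH9C2. The other 12 turned in at least 1 fit, among them TBL28, XTH32, GH9B18 and IRX15-L. A changed filter, variance trend or replicate block leaves the difference itself as it was. Leaving out 1 array cannot turn the direction of TBL19, TBL36, GH9B5, GH9B7 or GH9C2, whose groups do not overlap. A kept direction was thus partly fixed in advance, and the same count was not made over all tested probe sets.

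**Figure D4:**
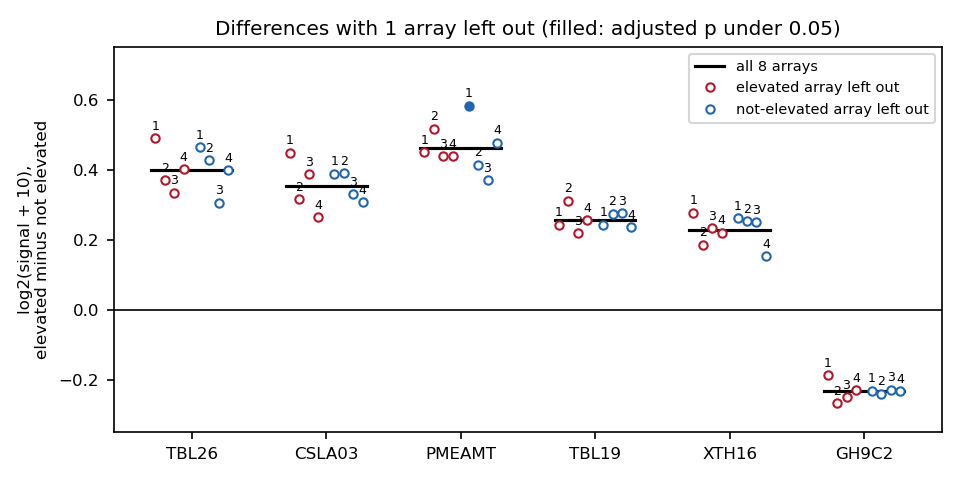
Difference of 6 members on the log2(signal + 10) scale, elevated minus not elevated, with all 8 arrays (black bar) and with each array left out (points with the number of the replicate removed, red for elevated and blue for not-elevated arrays). Filled points have a limma adjusted p under 0.05, which PMEAMT reached without not-elevated replicate 1 (0.58) and no other point did.

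The 23 members that were not tested had mean signals of 0.894 to 18.9 units, and the highest value of any of them on a single array was 27.8 units. They were 8 TBL, 7 GH9, 7 XTH and 1 IRX gene. Just below the limit of 20 units were TBL32 (18.9 units, from a probe set type that can read related transcripts too), GH9A4 (18.9) and TBL34 (17.7), and just above it GH9B12 (21.4), TBL36 (30.7) and GAUT15 (36.4). In the gene order of the reference, 6 pairs of members are direct neighbours, among them TBL28 and TBL30, TBL21 and TBL19, and GH9B17 and GH9B18.

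Other genes of wall formation were taken from 5 fixed lists covering nucleotide sugars, cellulose synthase partners, side-chain enzymes, secondary-wall regulators and lignin. Of 85 genes in them, the gene tables named 2, and 0 passed the threshold. COB (AT5G60920), a glycosylphosphatidylinositol-anchored protein that orients cellulose, averaged 490 ± 54.6 units in the elevated group and 445 ± 15.3 units in the not-elevated group (SD, n = 4 each), a log2 difference of 0.13 ± 0.091 (SE, limma adjusted p = 0.644). HCT (AT5G48930), an acyltransferase of lignin synthesis, averaged 614 ± 22.8 units in the elevated group and 626 ± 21.6 units in the not-elevated group, a difference of -0.029 ± 0.075 (SE, limma adjusted p = 0.929).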

How the data were processed

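The authors deposited 1 linear intensity per probe set and array; the submitters' processing notes name MAS5 with no version, and earlier steps are not stated there. Each array has a mean of 100 units once its top and bottom 2% are trimmed. Detection calls were not used. Control probe sets (64) were dropped, leaving 22746. Symbols came from the platform's gene table, updated by gene number through the RefSeq table of TAIR10.1. Probe sets with a mean of at least 20 units over 8 arrays were tested on log2(signal + 10), which understates changes of dim genes, with lmFit and eBayes with a variance trend (limma 3.58.1, R 4.3.3), two-sided. The test was checked on simulated data. Signals of different probe sets were not compared. Genes named are members past the threshold, largest differences without overlap, the smallest p and widest spread per family, members of role lists, and those at the signal limit. Members named for another reason, among them PME61, PMEPCRF, XTH32, CSLD2, GH9A3, TBL23, TBL25, TBL28, TBL35 and TBL37, were chosen for their family or role after their values were seen. Alternatives were normalization, pseudocount, filter, variance model, array weights, the replicate block and leaving out arrays. The members and lists were chosen with earlier results of these data known. The number of arrays limits the precision.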

Additional observations from a re-analysis of the deposited data

Results flagged for a closer look

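In each group of 4 arrays of the 35 tested members, 70 groups in all, Dixon's test was used to pick out a value far from the remaining 3. This picked out 3 values, where chance gives about 5% of groups, or 3.5. CSLC5 read 171.3 units in elevated replicate 1, against 237.8 to 248.2 units in the other elevated arrays. PMEAMT read 213.1 units in elevated replicate 2, against 246.9 to 252.5 units in the other elevated arrays. XTH16 read 269.1 units in not-elevated replicate 4, against 331.4 to 339.6 units in the other not-elevated arrays.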

How the results depend on the processing

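With 1 array left out in turn, 0 to 1 members were past the threshold, while 0 to 132 of all tested probe sets were. The number at an unadjusted p under 0.05 was 4 to 10 (8.5% to 13% of all tested probe sets). The number without overlap was 5 to 9 (8.39% to 12.3% of all). These ranges are not matched fit by fit. Without elevated replicate 1, 10 of 36 members were at an unadjusted p under 0.05, against 11.2% of all, and 9 did not overlap, against 10.4%. Without elevated replicate 3 the members stood at 5 of 35, against 13%, and at 5 without overlap, against 12.3%. The median difference of all members was 0.046 to 0.11 and that of the GH9 genes 0.014 to 0.11. With both replicate 1 arrays left out, 2 of 36 tested members passed, against 0.947% of all tested probe sets. In that fit 13 members did not overlap, against 18.5% of all, and the CSL median was 0.058. There 21 of 36 members were higher, with a median of 0.041 against -0.011 over all tested probe sets. Without a filter 36 of 58 were higher, with a median of 0.049 against 0.0041. With 1 array left out in turn 23 to 27 were higher. A mean signal of at least 50 units left 28 members tested, of which 3 did not overlap, against 7.13% of all. Quantile normalization, median scaling, a pseudocount of 1 or of 50, testing without a filter, no variance trend and array weights each gave 0 members past the threshold. Of all tested probe sets, 1 was called without a filter, 9 without a variance trend and 132 with array weights. The changed scalings and pseudocounts called 28 to 45. The replicate number as a block gave 0 members as well, against 50 of all tested probe sets. There 6 members were at an unadjusted p under 0.05 (9.34% of all tested probe sets) in place of 8. Deviations of equal-numbered arrays correlated at -0.176 to -0.0371, which cannot settle whether samples were paired by replicate number. Every member has 1 probe set, so counting all probe sets changed nothing. Leaving out PMEAMT was chosen after seeing the data. The causes of these moves were not tested. A dim signal does not show whether the transcript is present, and a change common to all transcripts would be lost in the scaling.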
